A study of Mus musculus with 12 samples.

Results

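The replication-dependent histone genes encode the bulk H1, H2A, H2B, H3 and H4 proteins that package newly copied DNA. Members were the probes whose annotated gene carries a current histone cluster name (H2ac, H2bc, H3c or H4c with a number) or an older cluster name as a RefSeq synonym, kept where every one of the 3 arrays in some group had a detection value of 0.01 or less, which means a signal above the negative control beads. The rule found 87 probes for 60 genes among the 45281 probes of the array, and 64 probes for 48 genes were kept, out of 14834 kept probes and 11089 features tested. Linker histone genes with no older cluster name, such as H1f10, were left out. The 48 genes comprised 3 H1, 13 H2A, 10 H2B, 9 H3 and 13 H4 genes. In the RefSeq table, 39 of them lie on chromosome 13, 8 on chromosome 3 and 1 (H4f16) on chromosome 6.

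RNA came from 4 groups of mouse pluripotent cells, on 3 Illumina bead arrays each. EsrrbHi, EsrrbMed and EsrrbNeg were E14Tg2a ESCs of an Esrrb-2a-GFPd-IBIH line, with destabilised GFP linked to both alleles of the orphan nuclear receptor gene Esrrb. They were plated at 3000 cells per cm2 in serum with LIF, and after 3 days SSEA-1+ cells were sorted for high, medium or no GFP. EpiSC were epiblast stem cells of a TNG Esrrb-2a-TdTomato line, in which 1 Nanog allele carries GFP, grown in N2B27 with Activin and FGF. Both reporter lines came from targeted clones. The study describes the EpiSC as derived from embryos at the late bud stage, and describes sorting before RNA preparation for the ESC groups only. EpiSC therefore differ from the ESC groups in line, origin, Nanog allele number, medium and sorting too. These cannot be told apart from the cell state. Chip 1 held replicates 1 and 2 of each ESC group, and chip 2 held replicate 3 of each ESC group with the 3 EpiSC arrays. The sorted ESC arrays are described as independent experiments. For the EpiSC arrays the sources used here do not say, so p-values of EpiSC comparisons rest on a spread that may be technical in part.

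Most replication-dependent histone mRNAs end in a conserved stem-loop instead of a poly(A) tail. The stem-loop binding protein SLBP attaches there, the U7 snRNP directs the cut, and NPAT switches the clusters on as cells enter S phase. Outside S phase the mRNAs are degraded. Mouse ESCs spend much of their short cycle in S phase. The labelling kit used for these arrays primes with oligo-dT, a step that favours polyadenylated copies, so levels here need not track total histone mRNA. The gene copies encode nearly the same proteins and resemble each other in sequence, and probe sequences were not used here, so a reading can include signal from a close copy. This can apply to H2ac18 and H2ac19, a duplicated pair, to H3c13 and H3c14, and to the H2A genes called further on. Which members it affects was not tested, so a count of genes need not be a count of separate signals.

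Histone genes often stand in back-to-back H2A and H2B pairs that share a stretch of promoter DNA. Among the 43 members with a promoter window in the RefSeq table (250 bases before to 50 after the start, GRCm38.p6), 4 H2A and H2B pairs had starts within 1000 bases of each other, facing away, with both genes tested. Their windows are shown because the arrays gave different values for the 2 genes of a pair, as described further on. They are read on the strand of the H2B gene, together with the windows of H3c4 and H4c11, which rose in EpiSC. Capitals mark the CCAAT box, the TATAAA box and the octamer ATTTGCAT, each on either strand.
H2bc12 with H2ac12 (chr13:22035571-22035870, plus strand): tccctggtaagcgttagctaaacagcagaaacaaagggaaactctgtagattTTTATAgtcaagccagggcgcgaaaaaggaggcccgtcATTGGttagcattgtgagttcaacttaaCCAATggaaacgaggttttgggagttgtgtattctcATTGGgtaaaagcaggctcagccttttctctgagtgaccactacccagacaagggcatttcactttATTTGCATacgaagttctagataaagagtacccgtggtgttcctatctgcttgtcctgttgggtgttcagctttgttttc
H2bc15 with H2ac15 (chr13:21753826-21754125, plus strand): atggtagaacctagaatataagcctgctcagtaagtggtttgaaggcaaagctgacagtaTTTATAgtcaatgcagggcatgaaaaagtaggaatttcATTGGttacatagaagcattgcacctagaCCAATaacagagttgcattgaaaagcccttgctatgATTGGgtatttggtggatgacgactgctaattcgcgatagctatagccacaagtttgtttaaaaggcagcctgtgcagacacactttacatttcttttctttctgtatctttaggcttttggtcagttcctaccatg
H2bc11 with H2ac11 (chr13:22042948-22043247, plus strand): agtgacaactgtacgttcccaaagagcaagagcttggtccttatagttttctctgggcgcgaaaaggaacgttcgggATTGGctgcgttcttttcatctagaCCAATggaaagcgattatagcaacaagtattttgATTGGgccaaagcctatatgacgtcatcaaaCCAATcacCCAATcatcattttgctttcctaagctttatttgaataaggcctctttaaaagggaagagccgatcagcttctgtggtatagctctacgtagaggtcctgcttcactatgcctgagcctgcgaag
H2bc7 with H2ac7 (chr13:23574158-23574457, minus strand): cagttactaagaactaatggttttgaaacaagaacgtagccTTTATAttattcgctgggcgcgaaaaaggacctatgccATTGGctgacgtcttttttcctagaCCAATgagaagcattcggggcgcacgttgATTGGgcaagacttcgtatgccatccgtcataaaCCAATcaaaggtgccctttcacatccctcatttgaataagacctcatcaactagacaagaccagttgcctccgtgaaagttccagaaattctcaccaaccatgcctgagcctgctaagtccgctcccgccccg
H3c4 (chr13:23575513-23575812, plus strand): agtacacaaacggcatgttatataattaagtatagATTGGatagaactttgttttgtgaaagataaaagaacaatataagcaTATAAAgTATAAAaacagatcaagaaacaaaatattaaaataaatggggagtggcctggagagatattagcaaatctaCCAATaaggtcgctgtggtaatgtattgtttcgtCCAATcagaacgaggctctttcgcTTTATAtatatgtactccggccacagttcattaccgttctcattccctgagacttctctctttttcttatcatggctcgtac
H4c11 (chr13:21734784-21735083, plus strand): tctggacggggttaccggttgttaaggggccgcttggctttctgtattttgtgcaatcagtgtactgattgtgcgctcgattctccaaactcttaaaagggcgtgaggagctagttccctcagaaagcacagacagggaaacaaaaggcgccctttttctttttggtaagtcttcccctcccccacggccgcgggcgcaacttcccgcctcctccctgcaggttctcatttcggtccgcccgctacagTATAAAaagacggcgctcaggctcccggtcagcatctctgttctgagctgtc

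The CCAAT box, bound by the NF-Y complex, was in the window of all 13 H2A, all 8 H2B and all 7 H3 genes that had one, and in 3 of 12 H4 genes, against 37.4% of the 32851 windows in the table. TATAAA was in 24 of the 43 member windows, against 13.6% of all windows. The octamer, a site of OCT factors known from H2B promoters, was in 4 of 8 H2B and 3 of 13 H2A windows, against 1.74% of all windows. One of those H2A matches, in the H2ac12 window, is the same stretch of DNA as the match of H2bc12. The motif TCAAGGTCA, the extended half-site recognised by ESRRB, was in none of the 43 windows, against 0.423% of all windows. Both strands were searched, and none of the 4 motifs contains another. These matches describe the letters only. All 5 H2A genes that rose between EsrrbHi and EsrrbMed have a CCAAT box, as do H2A genes that did not.

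Across the arrays the classes fell into 2 patterns. A subset of H2A genes, with H2bc4, was low in EsrrbHi and stood higher in the other 3 groups. Most H2B and H3 genes and part of the H4 genes were not called among the ESC groups and were higher in EpiSC. In all 6 pairwise comparisons, no histone gene fell past the thresholds, which were an adjusted p of at most 0.05 in limma and a change of at least 1.5-fold (0.585 on the log2 scale). Of the 48 genes, 33 were called in at least 1 comparison and 15 in none. The matching share of all features was not counted. In EpiSC over EsrrbHi alone, 18.5% of all features rose and 14.9% fell, so 33 of 48 has no background to be judged by.

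**Figure D1:**
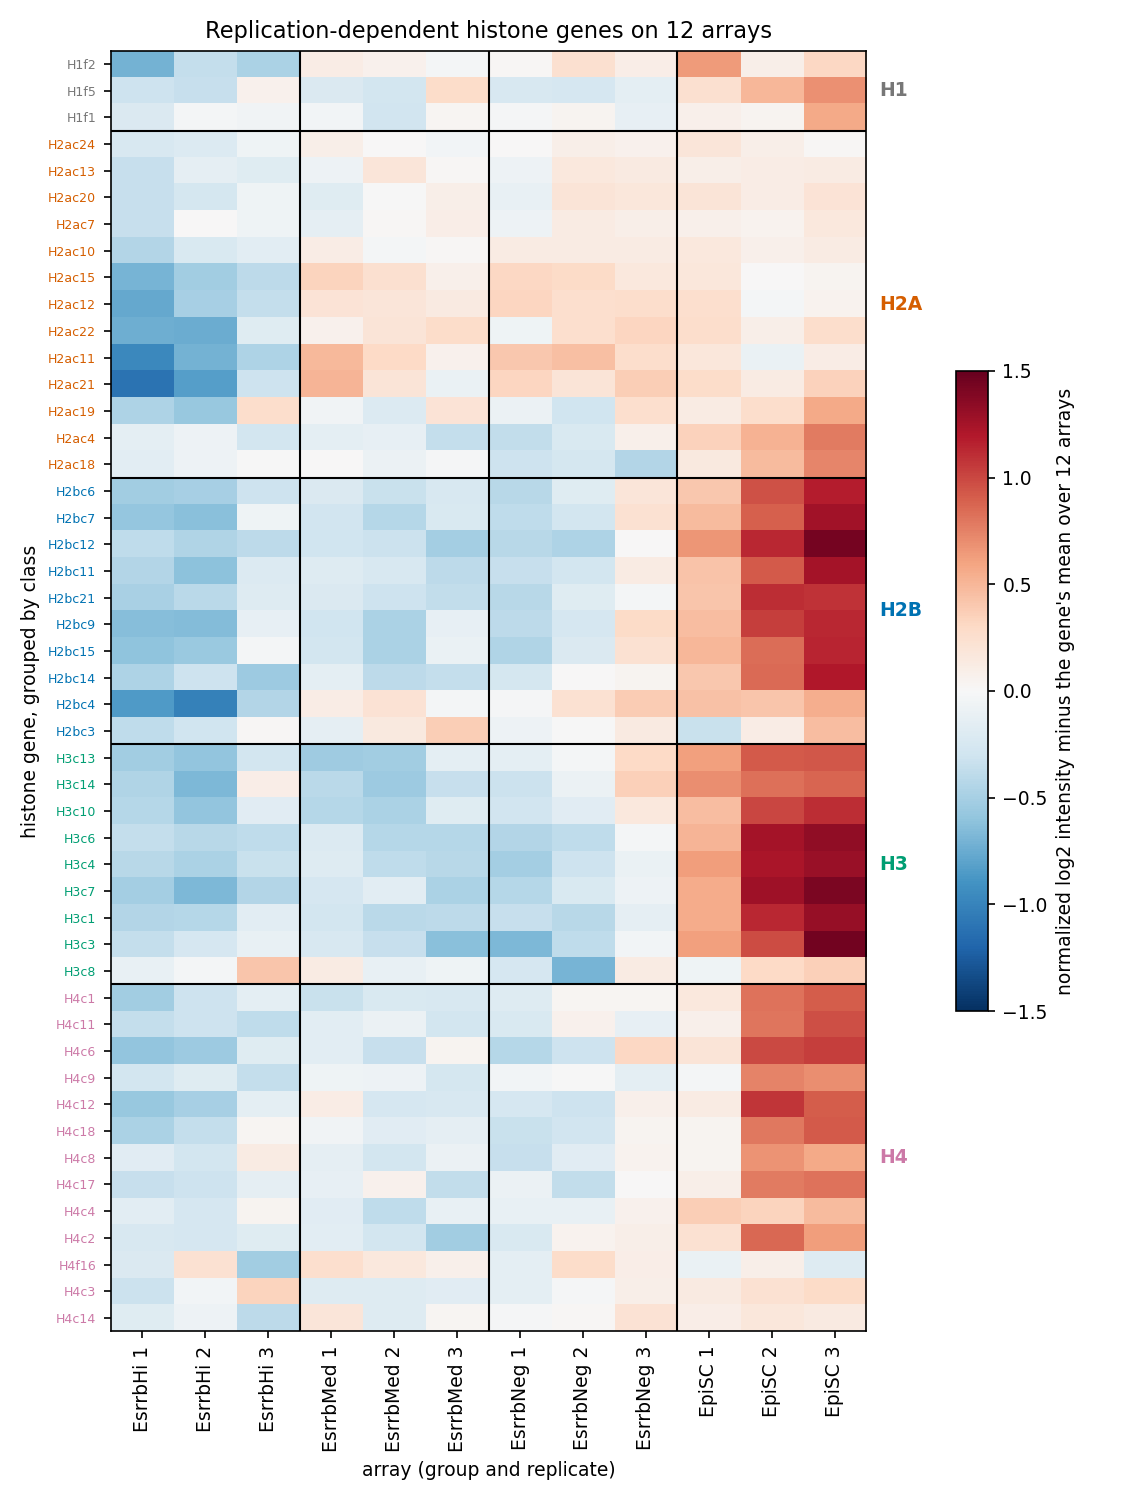
Heat map of 48 histone genes (rows, by class) on 12 arrays (columns), each cell the normalized log2 intensity minus the mean of that gene over the 12 arrays. The EsrrbHi arrays are low on H2ac11, H2ac12, H2ac15, H2ac21, H2ac22 and H2bc4, and the EpiSC arrays are high on most H2B, H3 and H4 genes, with EpiSC replicate 1 paler than replicates 2 and 3.

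The first comparison asks which histone genes moved while Esrrb was still expressed, from EsrrbHi to EsrrbMed. Of 48 genes, 6 rose and 0 fell, where 0.478% of all features rose and 0.703% fell. They were the H2A genes H2ac11, H2ac21, H2ac15, H2ac12 and H2ac22 (5 of 13 H2A genes) and 1 of 10 H2B genes, H2bc4, while 0 of 9 H3, 0 of 13 H4 and 0 of 3 H1 genes were called. The median log2 change was 0.26 over the H2A genes, 0.14 over the H2B genes, 0.03 over the H3 genes, 0.14 over the H4 genes and 0.14 over all 48, against 0.01 over all features. Values that follow are normalized log2 intensities per array in replicate order, and changes are log2 fold changes ± standard error, n = 3 arrays per group, fitted with a term for chip.

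H2ac11, one of the H2A copies on chromosome 13, read 8.83, 9.08 and 9.33 in EsrrbHi, 10.29, 10.10 and 9.86 in EsrrbMed, 10.20, 10.24 and 10.06 in EsrrbNeg and 9.97, 9.69 and 9.90 in EpiSC. The EsrrbHi arrays lay below all others. It rose 2.00-fold from EsrrbHi to EsrrbMed (1.00 ± 0.14, limma adjusted p = 0.00371) and was 2.12-fold higher in EsrrbNeg than in EsrrbHi (1.08 ± 0.14, adjusted p = 3.49e-05). H2ac21, an H2A copy of the smaller cluster on chromosome 3, read 8.54, 8.83 and 9.34 in EsrrbHi, 10.16, 9.85 and 9.55 in EsrrbMed, 9.98, 9.85 and 10.02 in EsrrbNeg and 9.92, 9.78 and 9.99 in EpiSC. EsrrbHi again lay below the other groups with no overlap, but its 3 arrays spread over most of the gap to EsrrbMed. The rise of H2ac21 was 1.93-fold (0.95 ± 0.18, adjusted p = 0.0156), and the call was lost without replicate 1 or 2 of EsrrbHi or of EsrrbMed.

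H2ac15 and H2ac12 moved alike. H2ac15 read 12.00, 12.17 and 12.30 in EsrrbHi, 13.03, 12.94 and 12.77 in EsrrbMed, 13.00, 12.98 and 12.85 in EsrrbNeg and 12.86, 12.70 and 12.73 in EpiSC, a rise of 1.69-fold to EsrrbMed (0.76 ± 0.10, limma adjusted p = 0.00371). H2ac12 read 11.90, 12.17 and 12.31 in EsrrbHi, 12.88, 12.86 and 12.80 in EsrrbMed, 12.99, 12.91 and 12.93 in EsrrbNeg and 12.91, 12.64 and 12.72 in EpiSC, a rise of 1.65-fold (0.72 ± 0.11, adjusted p = 0.00487). In both genes the EsrrbHi arrays lay below every other array. The second H2ac12 probe gave 0.77 and was called too, whereas from EsrrbHi to EpiSC the brighter probe was called (0.59) and the other was not (0.56, just under 1.5-fold). H2ac22 rose by 0.73 ± 0.11 (adjusted p = 0.00505).

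H2bc4, the H2B member of this group, read 4.67, 4.50 and 5.08 in EsrrbHi, 5.63, 5.73 and 5.48 in EsrrbMed, 5.50, 5.75 and 5.90 in EsrrbNeg and 5.96, 5.93 and 6.06 in EpiSC. It was detected on 2 of 3 EsrrbHi arrays and on all others, so its EsrrbHi level is close to background. It rose 1.82-fold (0.86 ± 0.13, limma adjusted p = 0.00487) and the groups did not overlap. The call was lost with no background correction, with an offset of 50 and in the deposited log2 table. H1f2, which encodes a linker histone, read 4.86, 5.21 and 5.09 in EsrrbHi, 5.67, 5.64 and 5.54 in EsrrbMed, 5.58, 5.81 and 5.66 in EsrrbNeg and 6.20, 5.65 and 5.88 in EpiSC. Its change from EsrrbHi to EsrrbMed (0.56 ± 0.13, adjusted p = 0.0470) passed the p threshold and was 1.47-fold, short of the call.

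The size of this step depended on the chip. For the 6 called genes the EsrrbMed minus EsrrbHi difference was 0.83 to 1.32 on chip 1 and 0.21 to 0.52 on chip 2, with 1 array a group, and was above 0 for each gene on both. Over all 48 genes the median was 0.20 on chip 1 and -0.01 on chip 2, and over the H2A genes 0.38 and 0.18. Fitted on chip 2 alone, 0 histone genes and 0% of all features were called. With each array scaled to its median in place of quantile normalization, 2 of the 6 calls remained (H2ac11 and H2bc4). Of all features 0.253% rose in that setting, against 0.478% in the main fit.

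**Figure D2:**
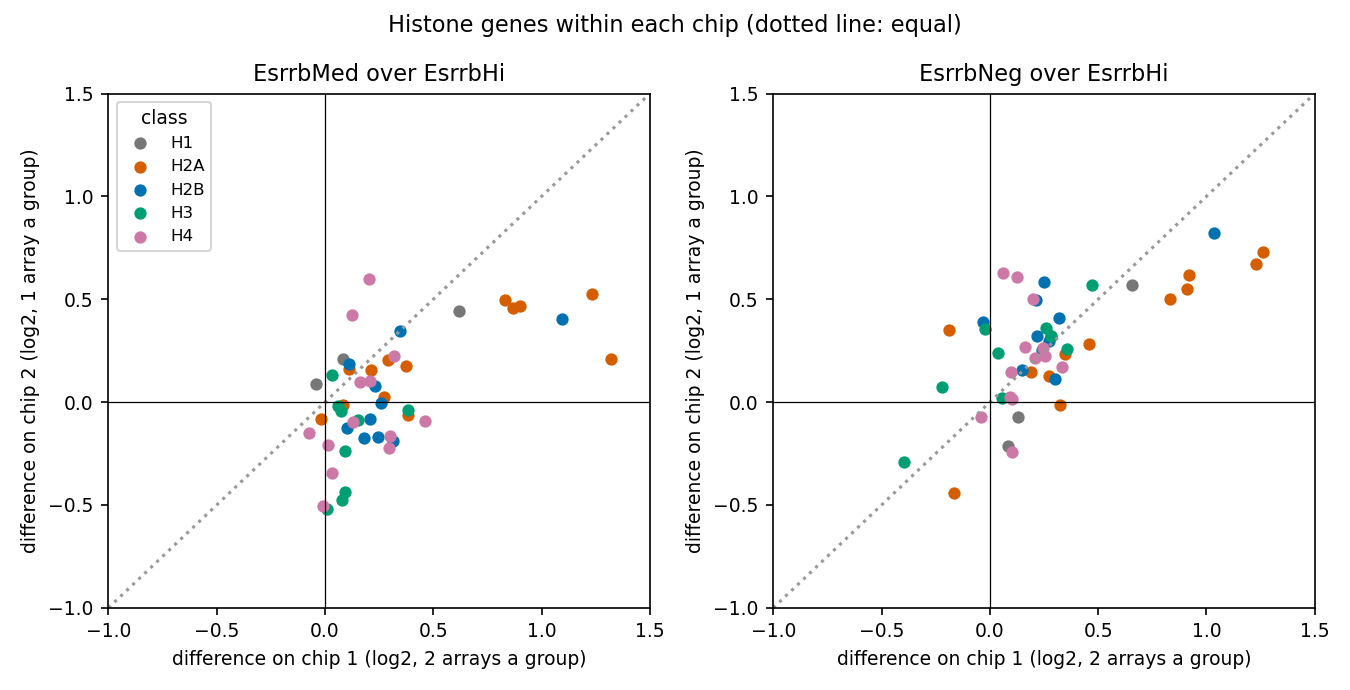
Difference between sorted ESC groups within chip 1 (x axis, log2, 2 arrays a group) and within chip 2 (y axis, log2, 1 array a group) for the 48 histone genes, coloured by class, with a dotted line where both are equal. Called H2A genes and H2bc4 lie to the right of 0 and above 0 in both panels, and below the dotted line.

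The brightest H2A probes lay near the top of the scale. The brightest probe of each of H2ac24, H2ac13, H2ac20, H2ac7 and H2ac10 read between 13.08 and 13.93 on every array, and 13.93 was the highest value of any probe after normalization. H2ac24 read 13.50, 13.54 and 13.69 in EsrrbHi, 13.84, 13.75 and 13.71 in EsrrbMed, 13.76, 13.84 and 13.81 in EsrrbNeg and 13.93, 13.84 and 13.77 in EpiSC. H2ac13 read 13.28, 13.49 and 13.45 in EsrrbHi, 13.55, 13.81 and 13.65 in EsrrbMed, 13.56, 13.79 and 13.77 in EsrrbNeg and 13.72, 13.73 and 13.75 in EpiSC. In both, EsrrbHi was lowest, without overlap with EsrrbMed, by less than the fold threshold (0.19 ± 0.09, limma adjusted p = 0.296, and 0.26 ± 0.10, adjusted p = 0.191). H2ac7, the H2A partner of H2bc7, has a bright and a dimmer probe, which disagreed. The bright probe read 13.20, 13.55 and 13.48 in EsrrbHi, 13.41, 13.56 and 13.65 in EsrrbMed, 13.47, 13.67 and 13.63 in EsrrbNeg and 13.62, 13.59 and 13.70 in EpiSC, a change of 0.13 ± 0.10 from EsrrbHi to EsrrbMed (adjusted p = 0.624 with each probe tested on its own). The dimmer one read 11.89, 12.22 and 12.19 in EsrrbHi, 12.78, 12.85 and 12.67 in EsrrbMed, 12.69, 12.83 and 12.84 in EsrrbNeg and 12.69, 12.56 and 12.59 in EpiSC, and rose by 0.67 ± 0.10 (adjusted p = 0.00491). Tested probe by probe, 8 of 64 histone probes rose in this comparison, against 0.398% of all 14834 probes.

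From EsrrbMed to EsrrbNeg, the step at which Esrrb itself was lost, limma called 0 of 48 histone genes, while 5.73% of all features rose and 6.17% fell. At an unadjusted p under 0.05 there were 3 of 48 histone genes and 4327 of 11089 features, and the median change was 0.07 against 0.01 over all features. The nearest to a call was H3c13, an H3 gene of the chromosome 3 cluster, which read 9.41, 9.34 and 9.66 in EsrrbHi, 9.40, 9.41 and 9.79 in EsrrbMed, 9.78, 9.91 and 10.23 in EsrrbNeg and 10.55, 10.86 and 10.87 in EpiSC. Its levels in EsrrbMed and EsrrbNeg overlapped by 1 array, at a change of 0.44 ± 0.10 (limma adjusted p = 0.00421) that stayed under 1.5-fold. H3c14, its neighbour, read 9.16, 8.93 and 9.71 in EsrrbHi, 9.21, 9.07 and 9.27 in EsrrbMed, 9.29, 9.52 and 9.97 in EsrrbNeg and 10.32, 10.44 and 10.48 in EpiSC. It changed by 0.41 ± 0.12 from EsrrbMed to EsrrbNeg (adjusted p = 0.0218), also under 1.5-fold. A second H3c14 probe near background, at 4.38 to 5.32 on the 12 arrays, was called in no comparison.

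Across the whole sort, from EsrrbHi to EsrrbNeg, 7 of 48 histone genes rose and 0 fell, where 9.06% of all features rose and 9.06% fell. They included all 6 that rose from EsrrbHi to EsrrbMed, a comparison that shares the EsrrbHi arrays, and H1f2 (0.63 ± 0.13, limma adjusted p = 0.00210). The share of the 48 genes that rose was 14.6%, but the 35 genes other than H2A had 2 (5.71%). The median over the 48 genes was 0.23 on chip 1 and 0.27 on chip 2, but each of the 7 called genes changed less on chip 2. H2ac11 changed by 1.26 on chip 1 and 0.73 on chip 2, and H2ac22 by 0.83 and 0.50. The median over the H3 genes went the other way, from 0.06 on chip 1 to 0.26 on chip 2. H2bc4 changed by 1.04 on chip 1 and 0.82 on chip 2. Chip 2 holds 1 array of each of these groups, and a fit on it alone called fewer histone genes and fewer of all features. The call of H1f2 was lost without EsrrbHi replicate 1 or EsrrbNeg replicate 2, and also without background correction, with an offset of 50 and in the deposited log2 table, with a lowest change of 0.23.

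Against EsrrbNeg, the ESC group nearest to EpiSC in Esrrb level, 22 of 48 genes rose and 0 fell, where 12.1% of all features rose and 8.96% fell. They were 8 of 10 H2B, 6 of 9 H3, 6 of 13 H4, 2 of 13 H2A and 0 of 3 H1 genes. The H4 count rests on the processing. It became 3 with median scaling, 1 with an offset of 50 and 0 without background correction or in the deposited log2 table. The share of all features that rose was lower there too, at 9.29%, 6.72%, 4.49% and 5.47% in the same order. The median change was 1.19 over the H3 genes, 0.79 over the H2B genes, 0.58 over the H4 genes, -0.04 over the H2A genes and 0.56 over all 48, against -0.01 over all features. Of the 6 genes that rose from EsrrbHi to EsrrbMed, 0 rose here. The overlap over all features was not counted. With 12.1% of all features rising, 0 of 6 says little about these genes.

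H2bc12, an H2B gene, read 7.46, 7.39 and 7.44 in EsrrbHi, 7.53, 7.51 and 7.32 in EsrrbMed, 7.41, 7.37 and 7.83 in EsrrbNeg and 8.50, 8.96 and 9.27 in EpiSC. Every EpiSC array lay above every ESC array, and EpiSC exceeded EsrrbNeg 2.49-fold (1.31 ± 0.19, limma adjusted p = 0.000175). Its second probe read 5.98, 5.96 and 6.17 in EsrrbHi, 6.32, 6.10 and 6.38 in EsrrbMed, 6.17, 6.36 and 6.60 in EsrrbNeg and 6.80, 7.38 and 7.52 in EpiSC, and was called at a smaller change over EsrrbNeg (0.70 ± 0.17, adjusted p = 0.00562 with each probe tested on its own). The EpiSC arrays were above all ESC arrays on either probe. H3c4 read 8.16, 8.11 and 8.24 in EsrrbHi, 8.38, 8.19 and 8.15 in EsrrbMed, 8.07, 8.26 and 8.48 in EsrrbNeg and 9.20, 9.80 and 9.87 in EpiSC, a rise of 2.44-fold over EsrrbNeg (1.28 ± 0.18, adjusted p = 0.000125). H3c7, H3c6 and H3c3, also on chromosome 13, were called too, while H3c8 of the same chromosome changed by 0.24 (adjusted p = 0.317) and was called in no comparison. H3c7 read 7.72, 7.55 and 7.78 in EsrrbHi, 7.97, 8.06 and 7.75 in EsrrbMed, 7.80, 7.99 and 8.14 in EsrrbNeg and 8.78, 9.50 and 9.63 in EpiSC (1.30 ± 0.21 over EsrrbNeg, adjusted p = 0.000357). H3c6 read 8.30, 8.24 and 8.28 in EsrrbHi, 8.46, 8.23 and 8.23 in EsrrbMed, 8.22, 8.28 and 8.63 in EsrrbNeg and 9.17, 9.91 and 9.99 in EpiSC (1.25 ± 0.21, adjusted p = 0.000409). In each of them no EpiSC array reached down to an ESC array. H3c3 read 5.50, 5.60 and 5.75 in EsrrbHi, 5.61, 5.51 and 5.23 in EsrrbMed, 5.18, 5.48 and 5.82 in EsrrbNeg and 6.47, 6.83 and 7.30 in EpiSC (1.29 ± 0.22, adjusted p = 0.000550).

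**Figure D3:**
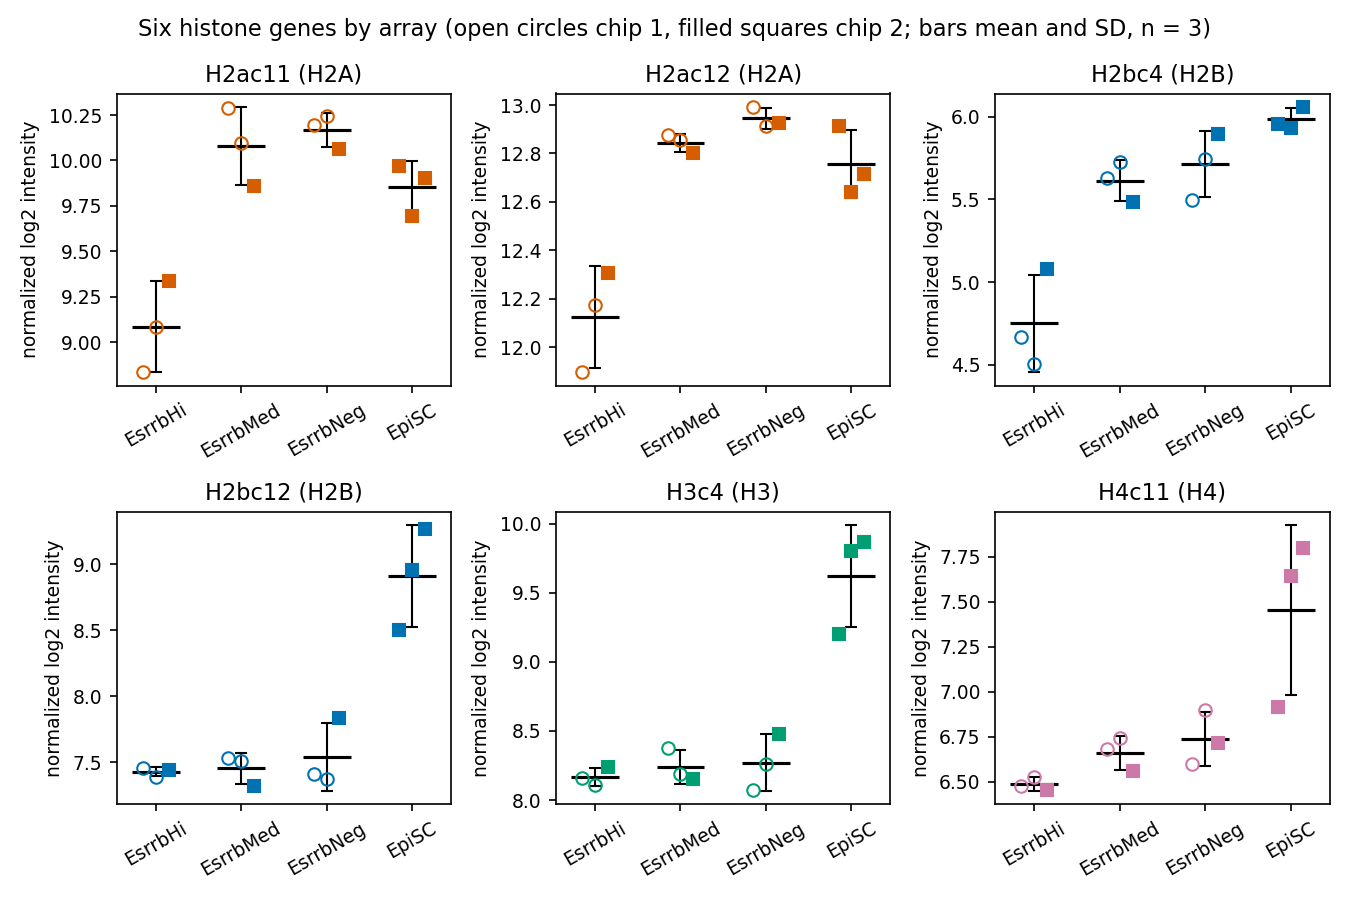
Normalized log2 intensity of 6 histone genes by group, each point 1 array (open circles chip 1, filled squares chip 2), with bars for the mean and SD of 3 arrays. H2ac11, H2ac12 and H2bc4 step up between EsrrbHi and EsrrbMed, whereas H2bc12, H3c4 and H4c11 step up in EpiSC, where replicate 1 is the lowest point of the latter 3.

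H2bc6 and H2bc7, 2 further H2B genes, and the H4 gene H4c11 were also called over EsrrbNeg. H2bc6 read 7.57, 7.60 and 7.78 in EsrrbHi, 7.88, 7.76 and 7.86 in EsrrbMed, 7.68, 7.92 and 8.28 in EsrrbNeg and 8.50, 9.05 and 9.27 in EpiSC (0.83 ± 0.19 over EsrrbNeg, limma adjusted p = 0.00335). Its second probe read 7.37, 7.39 and 7.43 in EsrrbHi, 7.61, 7.57 and 7.25 in EsrrbMed, 7.60, 7.71 and 7.86 in EsrrbNeg and 8.74, 9.23 and 9.41 in EpiSC, and gave a larger change over EsrrbNeg (1.42 ± 0.18, adjusted p = 4.83e-05 with each probe tested on its own). Both H2bc6 probes were thus called, at different sizes. H2bc7 read 7.45, 7.40 and 7.96 in EsrrbHi, 7.74, 7.60 and 7.79 in EsrrbMed, 7.65, 7.75 and 8.26 in EsrrbNeg and 8.50, 8.93 and 9.28 in EpiSC (0.75 ± 0.19, adjusted p = 0.00572), a call lost without EpiSC replicate 3. In both genes, EsrrbNeg replicate 3 was the highest ESC array. H4c11 read 6.48, 6.53 and 6.46 in EsrrbHi, 6.68, 6.75 and 6.56 in EsrrbMed, 6.60, 6.90 and 6.72 in EsrrbNeg and 6.92, 7.64 and 7.80 in EpiSC (0.77 ± 0.20, adjusted p = 0.00801). H4c1 read 7.63, 7.84 and 8.01 in EsrrbHi, 7.81, 7.93 and 7.91 in EsrrbMed, 7.96, 8.18 and 8.18 in EsrrbNeg and 8.31, 8.97 and 9.06 in EpiSC, a change of 0.58 ± 0.19 (adjusted p = 0.0225) just under 1.5-fold. For both H4 genes EpiSC replicate 1 lay close to the ESC arrays and the other 2 EpiSC arrays well above them.

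Some H4 genes have probes that disagreed on a call. H4c6 has 3 probes, of which the brightest read 6.09, 6.14 and 6.50 in EsrrbHi, 6.53, 6.34 and 6.72 in EsrrbMed, 6.26, 6.37 and 7.002 in EsrrbNeg and 6.88, 7.68 and 7.72 in EpiSC, and was called over EsrrbMed and EsrrbHi. The middle one read 5.33, 5.13 and 5.79 in EsrrbHi, 5.66, 5.38 and 5.62 in EsrrbMed, 5.19, 5.56 and 5.84 in EsrrbNeg and 5.54, 6.24 and 6.21 in EpiSC. The dimmest ran from 4.76 to 5.61, and neither of the last 2 was called in any comparison. H4c12 read 5.40, 5.48 and 5.83 in EsrrbHi, 6.09, 5.72 and 5.73 in EsrrbMed, 5.73, 5.66 and 6.05 in EsrrbNeg and 6.10, 7.05 and 6.88 in EpiSC on one probe, and 5.44, 5.59 and 5.79, then 5.60, 5.37 and 5.67, then 5.52, 5.71 and 6.02, and 6.06, 6.60 and 6.77 in the same order of groups on the other. Both H4c12 probes were called over EsrrbMed and EsrrbHi, and over EsrrbNeg the first was called (0.74) and the second was not (0.54). H4c18 likewise gave 0.61 (called) and 0.52 (not called) over EsrrbNeg on 2 probes, which ran from 5.42 to 6.82 and from 5.26 to 6.62 on the 12 arrays. All of these H4 probes were highest on EpiSC replicates 2 and 3.

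Of the 13 H2A genes, 2 (15.4%) rose in EpiSC over EsrrbNeg, near the 12.1% of all features that rose. They were H2ac4 (0.73 ± 0.16, limma adjusted p = 0.00220) and H2ac18 (0.80 ± 0.15, adjusted p = 0.000785), neither of which moved past a threshold among the ESC groups. Both are dim, at 5.32 to 6.46 and 4.58 to 5.75 on the 12 arrays, and both calls were lost with no background correction, with an offset of 50 and in the deposited log2 table. H1f5, a linker histone gene, read 4.79, 4.76 and 5.17 in EsrrbHi, 4.89, 4.83 and 5.38 in EsrrbMed, 4.86, 4.86 and 4.96 in EsrrbNeg and 5.35, 5.61 and 5.79 in EpiSC. EpiSC lay above EsrrbNeg without overlap, at 0.46 ± 0.13 (adjusted p = 0.0137), which is under 1.5-fold.

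**Figure D4:**
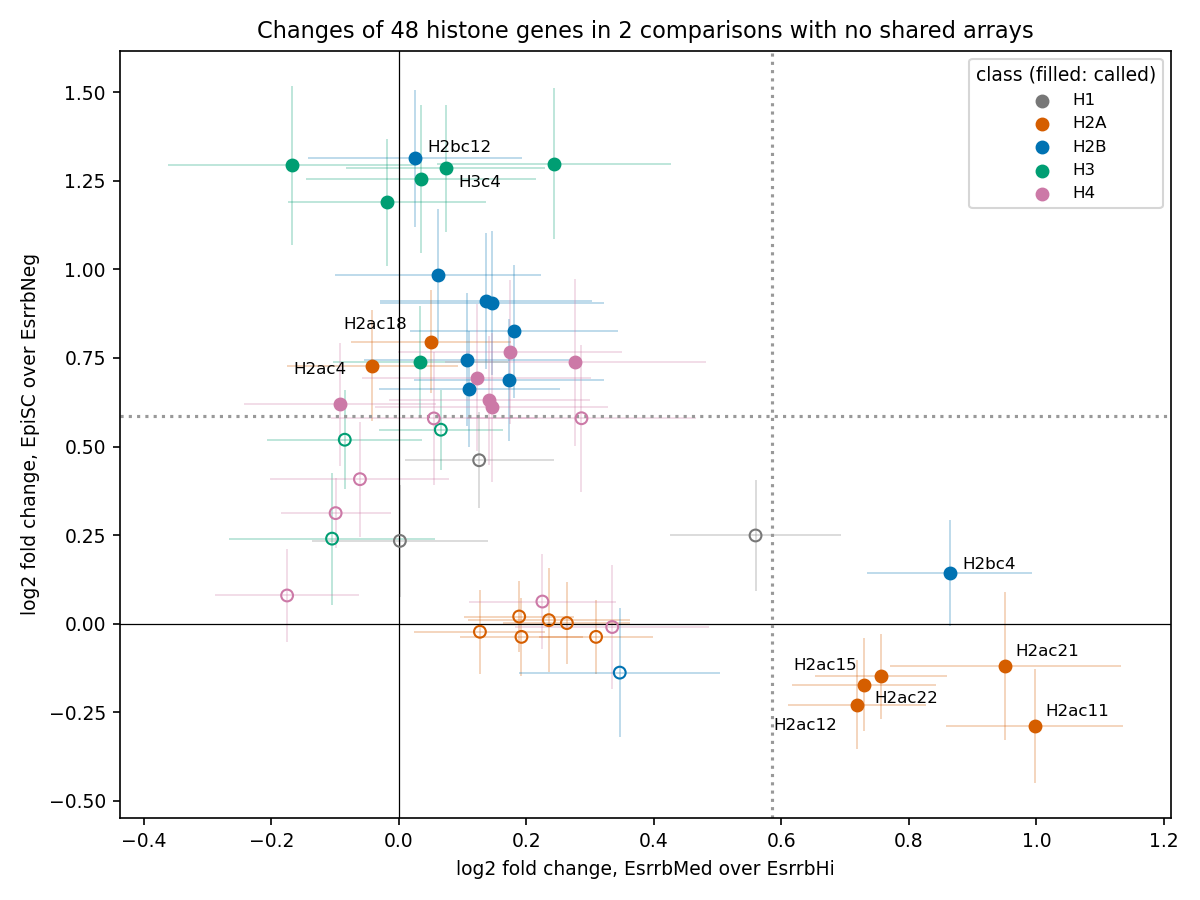
Log2 fold change of 48 histone genes from EsrrbHi to EsrrbMed (x axis) and from EsrrbNeg to EpiSC (y axis), with standard errors, coloured by class; filled points were called in either comparison and dotted lines mark 1.5-fold. No gene lies past both lines, with H2ac11, H2ac12, H2ac15, H2ac21, H2ac22 and H2bc4 at the right and H2B, H3 and H4 genes at the top. The share of all features past both lines was not counted.

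In 3 of the 4 back-to-back pairs the H2A gene was called from EsrrbHi to EsrrbMed and the H2B gene from EsrrbNeg to EpiSC. H2ac12 and H2bc12 have starts 178 bases apart. From EsrrbHi to EsrrbMed H2ac12 changed by 0.72 ± 0.11 and H2bc12 by 0.03 ± 0.17, and from EsrrbNeg to EpiSC they changed by -0.23 ± 0.13 and 1.31 ± 0.19 (0.70 on the second H2bc12 probe). H2ac15 and H2bc15, 164 bases apart, changed by 0.76 ± 0.10 and 0.11 ± 0.14 in the first comparison and by -0.15 ± 0.12 and 0.66 ± 0.16 in the second. In both pairs the H2A gene was called in the first comparison alone and the H2B gene in the second alone. H2ac11 and H2bc11, 249 bases apart, gave 1.00 ± 0.14 and 0.15 ± 0.18, then -0.29 ± 0.16 and 0.91 ± 0.20, with the same calls. For H2ac7 and H2bc7, 174 bases apart, 0.13 ± 0.10 and 0.11 ± 0.16 were followed by -0.02 ± 0.12 and 0.75 ± 0.19, and the bright H2ac7 probe used here is the one near the top of the scale. From EsrrbHi to EpiSC both genes of the first 3 pairs were called. H2ac12 and H2bc12 rose by 0.59 and 1.42, H2ac15 and H2bc15 by 0.64 and 0.91, and H2ac11 and H2bc11 by 0.80 and 1.16. Of H2ac7 and H2bc7 only H2bc7 was called there. The difference between the genes of a pair was not tested.

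Against EsrrbMed 24 of 48 genes rose in EpiSC and against EsrrbHi 31, with 0 falling, where 17.1% and 18.5% of all features rose and 13.4% and 14.9% fell. The 3 EpiSC comparisons share the EpiSC arrays, so they are given side by side. By class, 8 of 10 H2B, 8 of 9 H3, 7 of 13 H4, 1 of 13 H2A and 0 of 3 H1 genes rose over EsrrbMed, and 9, 8, 8, 5 and 1 over EsrrbHi. With the brightest probe of each gene, the largest changes over EsrrbMed were in H2bc12 (1.40), H3c7 (1.35), H3c3 (1.34) and H3c6 (1.32), and over EsrrbHi in H3c7 (1.59), H2bc12 (1.42), H3c4 (1.39) and H3c6 (1.36). The 4 H2A genes H2ac11, H2ac12, H2ac15 and H2ac21 were called over EsrrbHi (0.80, 0.59, 0.64 and 0.92) and had values between -0.20 and -0.03 over EsrrbMed. The second H2bc6 probe changed more than any of these, by 1.67 over EsrrbMed and 1.75 over EsrrbHi. The median over the 48 genes was 0.57 over EsrrbMed and 0.83 over EsrrbHi, against -0.0019 and 0.0080 over all features.

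Chip and single arrays moved with these results. Within chip 2, where EpiSC can be set against 1 array of each ESC group, the median change of the H3 genes was 1.05 over EsrrbNeg, 1.39 over EsrrbMed and 1.12 over EsrrbHi, that of the H2B genes 0.65, 1.10 and 1.03, and that of the H4 genes 0.49, 0.73 and 0.70. Fitted on chip 2 alone, with the spread taken from the EpiSC arrays, 1 gene (H3c4) was called over EsrrbNeg, 18 over EsrrbMed and 19 over EsrrbHi, where 6.5%, 17.4% and 17.9% of all features rose. The share of histone genes called over EsrrbNeg was thus below that of all features. In that fit 8 of 9 H3 genes remained called over both EsrrbMed and EsrrbHi, and 1 of 13 and 0 of 13 H4 genes. The median over the H3 genes read 9.17 on EpiSC replicate 1 and 9.80 and 9.87 on replicates 2 and 3, against 8.07 to 8.48 on the ESC arrays. Over the H4 genes it read 5.73, 6.37 and 6.40, against 5.40 to 5.80.

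The factors that make or handle histone mRNA were counted in the same fit. Npat and Slbp, which switch on and process histone transcripts, were on the array and not above background on all arrays of any group, as were Casp8ap2 and Lsm11. Of 26 listed factors 20 were tested, and 0, 0 and 0 rose and 0, 0 and 1 fell in EsrrbMed over EsrrbHi, EsrrbNeg over EsrrbMed and EsrrbNeg over EsrrbHi. Of all features 0.478%, 5.73% and 9.06% rose and 0.703%, 6.17% and 9.06% fell in these comparisons. In EpiSC 1 rose and 2 fell over EsrrbNeg, where 12.1% of all features rose and 8.96% fell. Over each of EsrrbMed and EsrrbHi 1 rose and 1 fell, where 17.1% and 18.5% of all features rose and 13.4% and 14.9% fell. Srrt, which links the cap-binding complex to 3′ end processing, was lower in EpiSC than in EsrrbMed (-0.99 ± 0.11, limma adjusted p = 6.44e-06). Wdr33, which recognises the polyadenylation signal, was higher in EpiSC than in EsrrbHi (0.75 ± 0.11, adjusted p = 9.03e-05). Zfp473, a component of histone pre-mRNA processing known from human cells, was lower in EsrrbNeg than in EsrrbHi (-0.67 ± 0.10, adjusted p = 0.000139).

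Of 33 listed histone chaperones and assembly factors 25 were tested. In EpiSC over EsrrbNeg 0 rose and 4 fell, with a median of -0.14, where 12.1% of all features rose and 8.96% fell. Smarcad1, a chromatin remodeller of replicated DNA, fell from EsrrbHi to EpiSC (-1.33 ± 0.14, limma adjusted p = 4.01e-06). Supt16, a subunit of the FACT complex that carries H2A and H2B, rose between the same groups (0.69 ± 0.11, adjusted p = 0.000101), and Mms22l, which works with H3 and H4 at replication forks, was lower in EpiSC than in EsrrbNeg (-0.69 ± 0.15, adjusted p = 0.00218).

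Of 48 listed genes of S phase 42 were tested, and 1 rose from EsrrbHi to EsrrbMed, where 0.478% of all features rose. Their median change there was 0.14, as over the 48 histone genes. In EpiSC over EsrrbNeg 0 rose and 7 fell, with a median of -0.12, where 12.1% of all features rose and 8.96% fell. Ccne2 and Ccne1 encode the E cyclins that start S phase. Ccne2 was higher in EsrrbNeg than in EsrrbHi (1.19 ± 0.14, limma adjusted p = 1.32e-05), and Ccne1 was lower in EpiSC than in EsrrbMed (-1.10 ± 0.10, adjusted p = 1.37e-06). Gins2, part of the replicative helicase, was higher in EpiSC than in EsrrbHi (0.87 ± 0.10, adjusted p = 9.17e-06). Of 28 listed genes of G2 and mitosis 18 were tested. From EsrrbHi to EsrrbNeg 9 fell (median -0.56), where 9.06% of all features fell. From EsrrbNeg to EpiSC 4 rose (median 0.36), where 12.1% of all features rose. Nusap1, a spindle protein, was lower in EsrrbNeg than in EsrrbHi (-1.13 ± 0.14, adjusted p = 2.84e-05). Ccnf and Kif23, a cyclin and a kinesin of cell division, were lower in EpiSC than in EsrrbHi (-1.26 ± 0.12, adjusted p = 1.20e-06, and -1.10 ± 0.13, adjusted p = 6.81e-06). Cell cycle phase was not measured in these samples, and the part of the phase mix in the histone values was not tested.

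The labels were checked with Esrrb and marker genes. Esrrb, on whose reporter the ESCs were sorted, read 11.95 ± 0.20 (SD, n = 3) in EsrrbHi and 11.27 ± 0.08 in EsrrbMed, and 5.64 ± 0.15 and 6.33 ± 0.29 in EsrrbNeg and EpiSC. All 7 naive markers, Esrrb among them, fell from EsrrbHi to EsrrbNeg and all 6 primed markers rose. The primed marker Fgf5 was not detected on any EsrrbHi array and read 10.26 ± 0.11 in EpiSC. On the arrays 13333 to 15393 of 45281 probes were above background. Of 6 fibroblast markers 3 were detected on all EpiSC arrays. The summed signal of the 6 was 856 to 3086 there and 154 to 359 on the ESC arrays, while Col1a2 and Postn were at background on every array. Of 6 primitive endoderm markers 2 were detected on all arrays of each group, with a summed signal of 132 to 211 in EpiSC and 51.9 to 159 in ESCs, and Gata4 and Sox17 were at background throughout. Of 3 streak markers on the array 1, Eomes, was detected on all EpiSC arrays. The part of these cells in the histone values was not tested. In bulk RNA, fewer cells of a kind and less RNA per cell cannot be told apart.

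Members that passed through the filter on dim signal are not all of the family. Of the 48 genes 39 were detected on all arrays of every group, and 2 passed through 1 group only, H2bc3 through EsrrbNeg and H4c14 through EpiSC. The other 12 genes of the 60 were not kept. They were H1f3, H1f4, H1f6, H2ac1, H2ac6, H2ac8, H2aw, H2bc1, H2bc8, H2bc18, H2bu1-ps and H2bu2. Among the 23 probes not kept, 18 were detected on no array. Over the 39 genes detected everywhere, 5 rose from EsrrbHi to EsrrbMed and 20 from EsrrbNeg to EpiSC in the main fit. The 8556 features detected on all arrays were fitted and adjusted on their own. In that separate fit 0.479% and 9.96% of them rose.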

How the data were processed

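Labelled RNA (100 ng total RNA per sample) was measured on 12 mouse bead arrays. The deposited intensity values are the authors' bead summaries per probe, neither background corrected nor normalized. Beside each intensity the authors deposited a detection p-value, set against negative control beads. A further deposited table has log2 values, which the authors made with beadarray, quantile normalization and ComBat, and served as an alternative.

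Background was corrected with neqc (limma 3.58.1, R 4.3.3; offset 16) and the log2 values were quantile normalized, which sets the same highest value on every array. A gene with several kept probes was represented by the brightest. Probe names came from the platform annotation and RefSeq (GRCm38.p6, names and promoter windows only). Of 45281 probes 32093 had 1 gene name, 16 several and 13172 none. One limma model with group and chip (7 residual and 6.08 prior degrees of freedom) covered all 12 arrays, with Benjamini-Hochberg adjustment over 11089 features (8487 named genes). The scripts were tested on simulated data.

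Genes given with all array values were, in each class, the 2 brightest, in each comparison up to 4 called genes with the largest change in each direction, and those whose probes disagreed on a call. From other lists up to 3 called genes with the largest change were named, with Slbp, Npat and Esrrb. H2ac10, H2ac20, H2ac22, H2ac4, H2ac18 and the genes of the back-to-back pairs were singled out after their values were seen. The members and lists were chosen with earlier results of these data known, so no list was tested. Same-numbered ESC arrays deviated together (correlations 0.238 to 0.555, partly through the chip), while EpiSC arrays did not pair with them (-0.0522 to 0.0579). Replicate arrays correlated at 0.987 to 0.996. The number of arrays limits the precision. Figures were drawn with matplotlib 3.10.9.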

Additional observations from a re-analysis of the deposited data

How the results depend on the processing

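Alternatives covered scaling, background, offset, filter, chip, replicate block, probe choice and each array. Calls rising from EsrrbHi to EsrrbMed (6) became 2 with median scaling. Both these calls and those in EsrrbNeg over EsrrbHi (7) became fewer on chip 2 alone, with 1 array a group. Calls of all features became fewer there too. EpiSC over EsrrbNeg (22) became 11 without background correction, 14 with an offset of 50 and 1 on chip 2 alone, and EpiSC over EsrrbHi (31) became 19 on chip 2 alone. The share of all features that rose changed with the setting too. It was 0.253% with median scaling in EsrrbMed over EsrrbHi, against 0.478% in the main fit. In EpiSC over EsrrbNeg it was 4.49% without background correction and 6.72% with an offset of 50, against 12.1% in the main fit. For chip 2 alone the fit has fewer arrays, and for the rest the cause was not tested. The median change moved to 0.27 without the filter in EpiSC over EsrrbNeg, to 0.29 and 0.52 without background correction in EpiSC over EsrrbMed and over EsrrbHi, and to 0.26 on chip 2 alone in EsrrbNeg over EsrrbMed.

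With each array left out in turn, the counts ran from 5 to 6 (EsrrbMed over EsrrbHi), 0 to 0 (EsrrbNeg over EsrrbMed), 6 to 7 (EsrrbNeg over EsrrbHi), 15 to 26 (EpiSC over EsrrbNeg, lowest without EpiSC replicate 3 and highest without replicate 1), 19 to 27 (EpiSC over EsrrbMed) and 29 to 33 (EpiSC over EsrrbHi). The medians ran from 0.10 to 0.21, -0.03 to 0.13, 0.19 to 0.32, 0.44 to 0.72, 0.44 to 0.84 and 0.73 to 0.93 in the same order. Shares of all features were not counted with arrays left out. A replicate block in place of chip, on the 9 ESC arrays, gave 6, 0 and 7 calls in the ESC comparisons. Of all features 0.55%, 5.76% and 9.12% rose there. On all 12 arrays, where EpiSC do not pair with ESC arrays, the block gave 26, 27 and 33 over EsrrbNeg, EsrrbMed and EsrrbHi. Of all features 13%, 17.4% and 18.5% rose in these. The replicate block moved no count by more than 1.5 times. Calls that stood in every alternative numbered 0 of 6 in EsrrbMed over EsrrbHi, 0 of 7 in EsrrbNeg over EsrrbHi, 1 of 22 in EpiSC over EsrrbNeg (H3c4), 15 of 24 over EsrrbMed and 16 of 31 over EsrrbHi. Probes near background and probes near the top of the scale both narrow the changes that can be seen.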

Other observations

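Histone variant genes outside the main clusters were measured beside the cluster genes. Most of them give polyadenylated mRNA, and some, H2ax among them, also give mRNA that ends in a stem-loop. Of 14 listed, 10 were tested. H1f10, a linker histone variant, was higher in EpiSC than in EsrrbMed (1.51 ± 0.17, limma adjusted p = 8.55e-06), and its values among the ESC groups were between -0.04 and 0.01. Macroh2a2, a variant of stably silent chromatin, was higher in EpiSC than in EsrrbMed (0.97 ± 0.12, adjusted p = 1.90e-05). Its EsrrbMed mean of 4.29 lay below the lowest detected values on those arrays (4.62 to 4.81), so this change is measured from background. H2ax, which marks DNA breaks when phosphorylated, was lower in EsrrbNeg than in EsrrbHi (-0.94 ± 0.10, adjusted p = 9.25e-06). The median over the 10 was -0.04 from EsrrbHi to EsrrbMed and 0.40 from EsrrbNeg to EpiSC.

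Of 16 listed genes that slow the cycle 11 were tested. From EsrrbHi to EsrrbNeg 3 rose and 1 fell (median 0.10), where 9.06% of all features rose and 9.06% fell. From EsrrbHi to EpiSC 3 rose and 1 fell (median -0.03), where 18.5% of all features rose and 14.9% fell. Cdkn1c, an inhibitor of cyclin-dependent kinases, rose from EsrrbHi to EsrrbNeg (1.58 ± 0.11, limma adjusted p = 1.33e-07), as did Ccng1, a p53 target (1.23 ± 0.12, adjusted p = 2.90e-06). Cdkn1a, which encodes p21, was higher in EpiSC than in EsrrbHi (1.90 ± 0.18, adjusted p = 1.26e-06).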
